A study of Mus musculus with 40 samples.

Results

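The integrin and laminin genes of the mouse mammary gland were examined in 4 cell populations, at puberty and through the estrous cycle. Members were all genes whose symbol is an integrin alpha or beta subunit (Itga or Itgb followed by a number or letter) or a laminin alpha, beta or gamma chain (Lama, Lamb or Lamc followed by a number). This rule gave 38 genes of 26132 in at least 1 count table, 27 integrin subunits and 11 laminin chains. All 38 were in the adult table and 37 in the pubertal table.

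The animals were wildtype FVB/N females, either pubertal mice of 34 to 36 days or adult virgins of 14 to 16 weeks staged as proestrus, estrus, metestrus or diestrus. Cells were collected as luminal cells, basal cells, adipocytes (labelled fat) and fibroblasts (labelled stromal, the non-adipose stromal gate), with 2 libraries for each population at puberty and at each of the 4 stages, 40 libraries in all. Each pubertal library pooled 4 mice and each adult library pooled 2 or 3 mice, and the 4 populations of an adult pool came from the same mice. Within a stage, replicate 1 stood for mice judged early and replicate 2 for mice judged late by cytology and histology. Where these showed no clear order, the mice were pooled by cell number. The luminal, basal and stromal gates were set on EpCAM and CD49f after cells carrying CD45, CD31 or Ter119 had been gated out, whereas adipocytes were the floating fraction and passed no antibody gate. CD49f is the protein of Itga6, so where levels were compared between cell types Itga6 is only described and was left out of the counts. It was kept in the tests and counts of stage, of stage effects that differed between cell types, and of age. The pubertal and adult libraries were sequenced in different runs, so age and run cannot be told apart.

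Integrins are heterodimers of 1 alpha and 1 beta subunit that anchor cells to the extracellular matrix and carry signals across the membrane. Laminins are heterotrimers of an alpha, a beta and a gamma chain, and they are a main building block of the basement membrane that surrounds the mammary epithelium, adipocytes and vessels. Laminins that hold the Lama3 and Lamb3 chains are ligands of the hemidesmosome integrin formed by Itga6 and Itgb4. Basal cells touch the basement membrane directly, and most luminal cells lie on the basal layer.

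Levels are given as CPM, a gene's read count relative to its library total after TMM scaling over all 40 libraries, which compares 1 gene between libraries. RPKM, the same value per kilobase of exon, was used wherever different genes were compared. Library totals ran from 8991222 to 22760563 counts. Defining markers followed the labels: Krt18 had a median of 6088 CPM in luminal cells and at most 354 CPM elsewhere, Krt14 5764 CPM in basal cells, Adipoq 929 CPM in adipocytes and Col1a1 6583 CPM in fibroblasts (10 libraries each). The populations were not pure by marker level. Summed over 8 genes, endothelial markers reached 977 to 2604 CPM in adult fibroblast libraries although CD31 had been gated out, and 542 to 1737 CPM in adult adipocyte libraries. Summed over 10 genes, leukocyte markers were 250 to 607 CPM in adult adipocyte libraries and at most 69.9 CPM in the other adult libraries. Summed over 7 genes, fibroblast markers were 3015 to 6032 CPM in adult adipocyte libraries and 18054 to 47143 CPM in adult fibroblast libraries. Both diestrus adipocyte libraries stood apart: the summed luminal markers were 1657 and 1028 CPM against 187 to 441 CPM in the 6 other adult adipocyte libraries, and the summed basal markers 664 and 4413 CPM against 137 to 486 CPM. The summed epidermal markers were 1812 CPM in diestrus replicate 2, where the adipocyte markers were lowest, at 5774 CPM against 13956 to 23462 CPM in those 6 libraries.

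**Figure D1:**
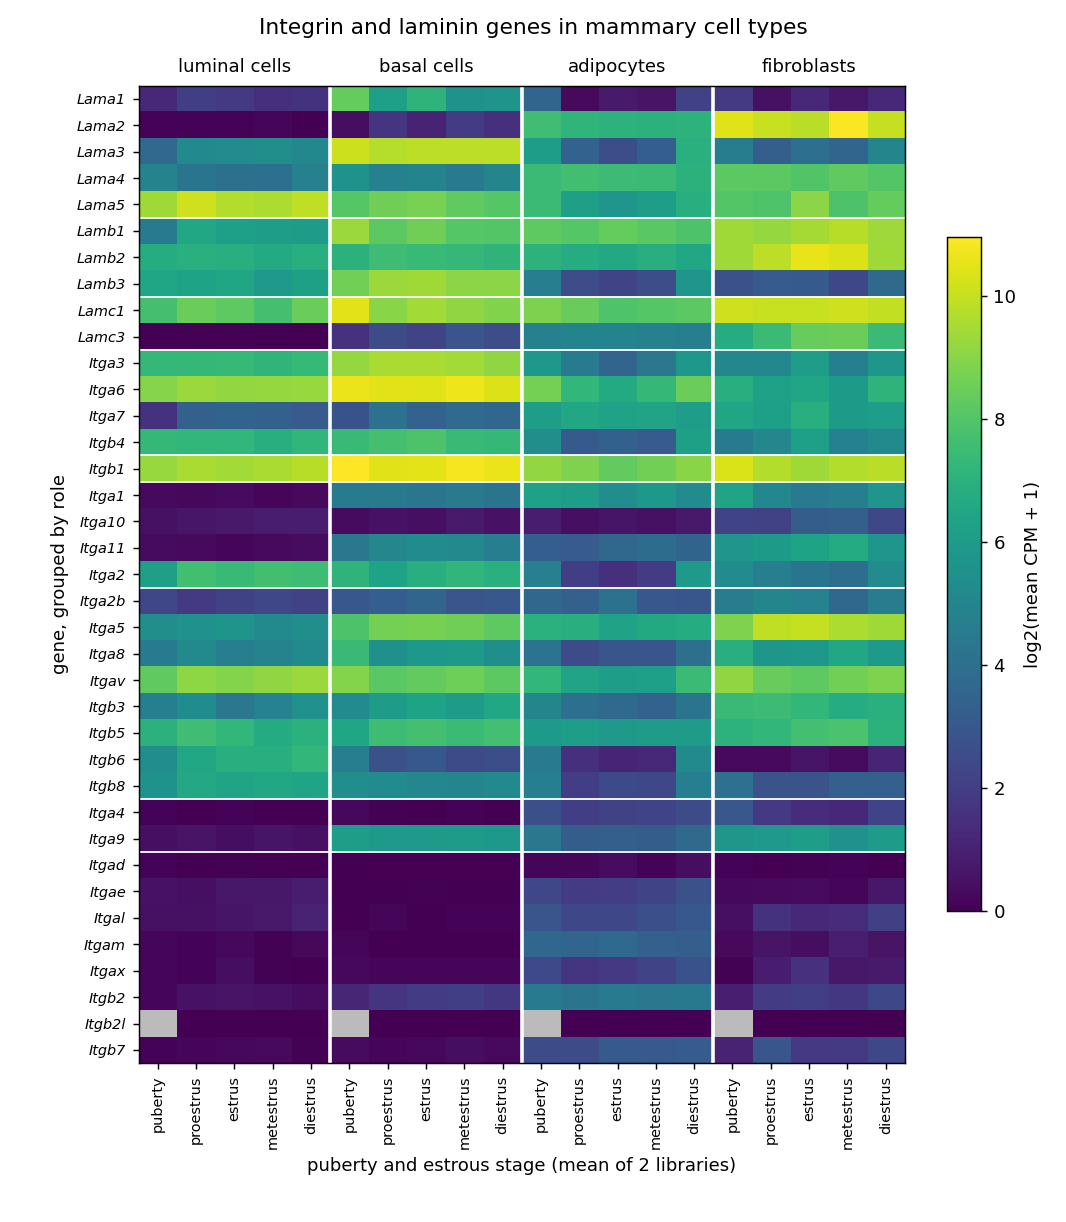
Mean level of the members, 1 left out, as log2(mean CPM + 1), with genes in rows grouped by role and the 4 cell types in columns, each at puberty and in the 4 estrous stages (2 libraries per column). Itgb2l is grey at puberty, where it was not in the table. The blocks differ mainly by cell type, and the adipocyte block differs between puberty or diestrus and the other stages.

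The sequence just upstream of the annotated start is shown for 3 members whose levels separate the populations: Lama5, highest in luminal cells, Itga3, highest in basal cells, and Lama2, highest in fibroblasts. Each is 250 bases, 5′ to 3′ on the gene's strand, from RefSeq on GRCm38.p6. The gene bodies in the GENCODE annotation of GRCm38 are chr2:180176373-180225859 for Lama5, chr11:95044474-95076801 for Itga3 and chr10:26980036-27619758 for Lama2. All 3 genes lie on the minus strand, and the upstream one of 2 windows is shown for Itga3. The windows are chr2:180225860-180226109 for Lama5, chr11:95076715-95076964 for Itga3 and chr10:27616943-27617192 for Lama2. The RefSeq start lies inside the GENCODE gene body for Itga3 and Lama2. The Itga3 window overlaps that gene body in part, and the Lama2 window lies wholly inside it, downstream of the GENCODE start. Capitals mark GC boxes, GGGCGG on either strand.
Lama5: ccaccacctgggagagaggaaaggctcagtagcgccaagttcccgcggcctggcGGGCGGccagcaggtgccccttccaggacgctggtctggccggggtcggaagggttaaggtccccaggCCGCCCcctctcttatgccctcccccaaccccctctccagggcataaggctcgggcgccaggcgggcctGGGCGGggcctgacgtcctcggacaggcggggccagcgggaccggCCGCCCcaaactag
Itga3: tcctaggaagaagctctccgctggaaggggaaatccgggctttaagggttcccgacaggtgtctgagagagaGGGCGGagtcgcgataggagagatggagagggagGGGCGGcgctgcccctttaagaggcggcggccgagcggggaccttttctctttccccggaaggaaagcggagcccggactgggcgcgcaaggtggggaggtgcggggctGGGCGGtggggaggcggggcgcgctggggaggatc
Lama2: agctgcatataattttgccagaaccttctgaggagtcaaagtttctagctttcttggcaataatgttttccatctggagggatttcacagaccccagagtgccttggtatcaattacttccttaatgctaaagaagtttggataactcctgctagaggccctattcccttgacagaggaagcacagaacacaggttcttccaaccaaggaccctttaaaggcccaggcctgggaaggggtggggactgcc
The Lama5 window holds 4 GC boxes, the Itga3 window 3 and the Lama2 window 0. Among the 24 members with an upstream window in the RefSeq set, 8 had a GC box in at least 1 window, and 32.7% of all 32851 windows did. The AP-1 letters TGANTCA, which read the same on both strands, were in the windows of 1 member, Itgax, and in 6.75% of all windows. These matches describe letters in the windows and were not measured as binding sites.

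In adult glands, the laminin alpha chain with the largest share differed between the 4 populations. Luminal cells were dominated by Lama5, basal cells by Lama3 and Lamb3 and fibroblasts by Lama2 with Lamb2 and Lamc1. Lama5, the alpha chain of the main laminins of adult epithelia, held 93.7% ± 1.27 (SD, n = 8) of the alpha chain RPKM in luminal cells. Lama3 held 67.6% ± 6.1 in basal cells and Lama2 held 56% ± 11.7 in fibroblasts. In adipocytes Lama4, an alpha chain of vessel and fat basement membranes, had the largest share at 44.6% ± 13, followed by Lama2 at 25.9% ± 6.13. No laminin chain had its highest mean level in adipocytes. Lama4 averaged 279 CPM in fibroblasts and 171 CPM in adipocytes (0.72 log2, edgeR quasi-likelihood test, adjusted p = 0.00571). Endothelial markers were present in adipocyte libraries, as given above, and their part in the Lama4 level was not tested. In bulk libraries, fewer cells of a type and less RNA per cell cannot be told apart.

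**Figure D2:**
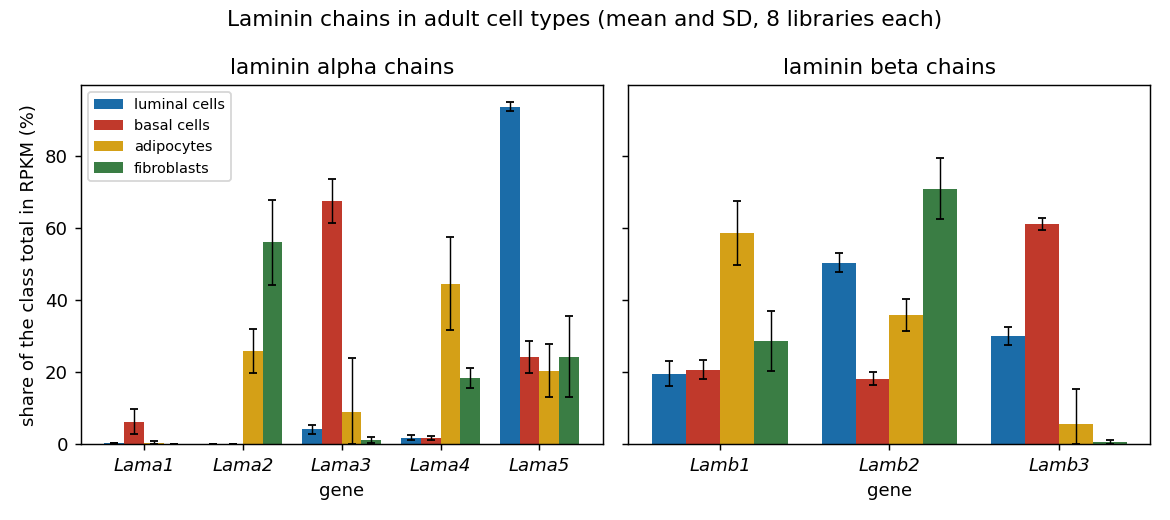
Share of each laminin chain in the RPKM total of its class (alpha or beta), by adult cell type. Bars are means and error bars SD over 8 libraries. Lama5 takes 93.7% of alpha chains in luminal cells, Lama3 67.6% in basal cells and Lama2 56% in fibroblasts.

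Lama3 and Lamb3 were highest in basal cells. Lama3 ran from 755 to 1122 CPM in basal cells (median 874), from 21.2 to 53.5 CPM in luminal cells (median 36.9) and from 7.06 to 33.1 CPM in fibroblasts (median 13.3). In adipocytes its range was 4.69 to 199 CPM with a median of 8.6, and the highest library was diestrus replicate 2. No basal library overlapped with any other population. Lama3 was 5.48 ± 0.19 higher in basal cells than in the mean of the other 3 types (log2 fold change ± SE, edgeR quasi-likelihood test, adjusted p = 9.96e-16). Lamb3 had the same order at the top, with 504 to 689 CPM in basal and 57.7 to 91.2 CPM in luminal cells, a basal excess over the other 3 types of 5.13 ± 0.21 log2 (adjusted p = 1.45e-14). The luminal minus basal difference on the log2 scale was -4.60 ± 0.29 for Lama3 and -2.98 ± 0.30 for Lamb3.

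Lama1, an alpha chain best known from embryonic basement membranes, was a low-level member except in basal cells. Adult basal libraries held 38.4 to 177 CPM (median 59.6) and luminal libraries 1.51 to 3.55 CPM. Fibroblasts reached at most 1.85 CPM and adipocytes at most 6.27 CPM, so no other library overlapped with basal cells. The basal excess over the other 3 types was 5.95 ± 0.24 log2 (edgeR adjusted p = 1.09e-14).

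Lama5 was the luminal alpha chain. It ran from 595 to 1266 CPM in luminal cells (median 931), from 239 to 518 CPM in basal cells (median 325), from 204 to 542 CPM in fibroblasts (median 297) and from 42.7 to 175 CPM in adipocytes (median 65). Every luminal library was above every library of the other 3 populations. Lama5 was 1.43 ± 0.17 log2 higher in luminal than in basal cells (edgeR adjusted p = 1.39e-07), while basal cells and fibroblasts were not told apart, at 0.10 ± 0.16 log2 (adjusted p = 0.582).

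Fibroblasts carried the stromal chains. Lama2, the alpha chain of muscle and nerve laminin-211, ran from 608 to 2188 CPM in fibroblasts (median 1152) and from 99.9 to 169 CPM in adipocytes (median 140), and did not exceed 4.65 CPM in basal or 0.173 CPM in luminal cells. Adipocytes minus fibroblasts was -3.09 ± 0.28 on the log2 scale (edgeR adjusted p = 4.9e-09). Adipocytes in turn were 4.84 ± 0.25 log2 above the mean of the other 3 types, a fitted value that rests on epithelial libraries near 0. Lamc3, a gamma chain of restricted distribution, ran from 101 to 422 CPM in fibroblasts, 21.8 to 38.2 CPM in adipocytes, 2.68 to 8.79 CPM in basal cells and 0 to 0.0877 CPM in luminal cells. Fibroblast markers were present in adipocyte libraries, as given above, and their part in the adipocyte levels of Lama2 and Lamc3 was not tested. Lamb2 had the highest laminin RPKM in fibroblasts (183 ± 60.7), followed by Lamc1 (126 ± 28.3). Lamb1 and Lamc1, chains of many laminins, were measured in every population. Lamb1 did not pass the test between basal cells and adipocytes (0.10 ± 0.18 log2, adjusted p = 0.603) and Lamc1 did not pass the test between luminal cells and adipocytes (0.07 ± 0.18 log2, adjusted p = 0.714).

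The integrin subunits also followed the cell types. Itgb1, the beta subunit shared by most matrix-binding integrins, had the highest integrin RPKM in every population: 379 ± 48.7 in basal cells, 199 ± 28 in fibroblasts, 188 ± 17.7 in luminal cells and 103 ± 19.4 in adipocytes (SD, n = 8). It was lower in luminal than in basal cells by -1.01 ± 0.08 log2 (edgeR adjusted p = 2.96e-10), and fibroblasts and luminal cells were not told apart (0.08 ± 0.08 log2, adjusted p = 0.341). Itga6, the CD49f subunit used in the gates, had a median of 1386 CPM in basal cells, 601 CPM in luminal cells, 153 CPM in adipocytes and 76.9 CPM in fibroblasts. Its partner in the hemidesmosome, Itgb4, did not follow that order closely: it ran from 121 to 275 CPM in basal and from 113 to 162 CPM in luminal cells, with overlapping ranges and a luminal minus basal difference of -0.43 ± 0.23 log2 (adjusted p = 0.0983). Itga3, which pairs with Itgb1 as a laminin receptor, ran from 550 to 838 CPM in basal cells and from 134 to 164 CPM in luminal cells without overlap. Itga7, the muscle laminin receptor subunit, was higher outside the epithelium, with medians of 81.9 CPM in adipocytes and 70.7 CPM in fibroblasts and at most 16.2 CPM in epithelial libraries. Summed skeletal muscle markers were 44.2 to 432 CPM in adult adipocyte libraries, 2.44 to 27.2 CPM in adult fibroblast libraries and at most 1.23 CPM in adult epithelial ones. Summed pericyte markers were 457 to 1025 CPM, 1287 to 1997 CPM and at most 349 CPM in the same order. Their part in the Itga7 levels was not tested.

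Of the 8 integrin subunits that bind the RGD motif, a short cell attachment sequence in several matrix proteins, Itgav, Itgb6 and Itgb8 had their highest adult level in luminal cells. Itga2b, Itga5, Itga8 and Itgb3 were highest in fibroblasts. Itgb5 had its highest mean in basal cells, which were not told apart from fibroblasts (0.16 ± 0.11 log2, edgeR adjusted p = 0.176). Itgb6, which pairs with Itgav and is typical of epithelia, ran from 91.3 to 165 CPM in luminal cells and from 3.57 to 7.4 CPM in basal cells. Fibroblasts stayed at or below 1.24 CPM. Adipocytes had a median of 1.6 CPM and reached 63.2 CPM in diestrus replicate 2. Itgb6 was 5.87 ± 0.23 log2 above the mean of the other 3 types (edgeR adjusted p = 3.08e-15). Itgb8, another partner of Itgav, was 2.91 ± 0.14 log2 higher in luminal cells (adjusted p = 8.01e-14), with 68.7 to 105 CPM there and at most 49.9 CPM elsewhere. Itga2, a collagen receptor subunit, was 2.96 ± 0.27 log2 higher than in the other 3 types together (adjusted p = 2.86e-09), yet its luminal (127 to 252 CPM) and basal (61.2 to 177 CPM) ranges overlapped and that pair did not pass the test (0.72 ± 0.35 log2, adjusted p = 0.0727).

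Itga5 and Itga11 were highest in fibroblasts, as was the collagen-binding subunit Itga10. Of the other collagen and fibronectin receptor subunits, Itga1 and Itga4 had their highest mean in adipocytes and Itga2 in luminal cells. Adipocyte and fibroblast ranges overlapped for Itga1 (29.7 to 69.7 and 17.9 to 65.9 CPM) and Itga4 (1.59 to 6.93 and 1.29 to 4.79 CPM). Endothelial and leukocyte markers were present in adipocyte libraries, as given above, and their part in these levels was not tested. Itga5, the fibronectin receptor subunit, ran from 518 to 1087 CPM in fibroblasts, 295 to 470 CPM in basal cells, 66.0 to 141 CPM in adipocytes and 29.9 to 58.9 CPM in luminal cells, 4 ranges with no overlap. Itga11, a fibrillar collagen receptor subunit, ran from 43.6 to 115 CPM in fibroblasts and 23.8 to 42.6 CPM in basal cells and did not exceed 0.303 CPM in luminal cells, and its fibroblast excess over the other 3 types was 4.10 ± 0.13 log2 (edgeR adjusted p = 1.07e-16). The order at the top was not resolved for Itga9, a tenascin and osteopontin receptor subunit: fibroblasts averaged 59.6 ± 17.7 CPM and basal cells 59.4 ± 6.08 CPM (adjusted p = 0.987), against 0.45 ± 0.244 CPM in luminal cells.

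The leukocyte integrins were highest in the adipocyte fraction. Itgam, the CD11b subunit of myeloid cells, ran from 5.87 to 13.1 CPM in adipocytes and from 0 to 1.29 CPM in fibroblasts, a difference of 4.23 ± 0.39 log2 (edgeR adjusted p = 3.47e-08), and had a count of 0 in all 8 adult basal libraries. Itgb2, the shared leukocyte beta subunit, ran from 13.5 to 26.3 CPM in adipocytes and was 2.71 ± 0.25 log2 above fibroblasts (adjusted p = 3.38e-09). Itgb7, a beta subunit of lymphocyte integrins, ran from 3.3 to 12.8 CPM in adipocytes, overlapping with fibroblasts (1.85 to 9.83 CPM). All 6 tested leukocyte members were higher in adipocytes than in the other 3 types together. The leukocyte markers moved with them, and Ptprc, the gene of CD45, was 21.3 to 58.0 CPM in adipocyte libraries, 0.16 to 21 CPM in fibroblasts and at most 0.171 CPM in epithelial libraries, puberty included. The part of these cells in the result was not tested. The remaining leukocyte members, Itgad and Itgb2l, did not pass the filter of more than 1 CPM in at least 2 libraries, with at most 6 counts in any adult library.

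Counted over the 35 tested members without Itga6, 28 differed between luminal cells and the other 3 types in the adult, 10 higher and 18 lower. Of all genes tested, 73.7% differed there, 38% higher and 35.7% lower. Basal cells differed in 26 members, 17 higher and 9 lower, against 74.3% of all genes (39.7% higher, 34.6% lower). Adipocytes differed in 32, 13 higher and 19 lower, against 80.5% (43.9% higher, 36.6% lower). Fibroblasts differed in 31, 22 higher and 9 lower, against 77.5% (39.9% higher, 37.7% lower). The members' shares, 80%, 74.3%, 91.4% and 88.6%, lie near those of all genes and are given as a description. The median log2 difference over the members was -0.73 for luminal, 0.30 for basal, -1.06 for adipocyte and 1.53 for fibroblast libraries, where the medians of all genes lay between -0.05 and 0.10. Between pairs of populations, 29 members differed between luminal and basal cells (73.6% of all genes), 33 between luminal cells and adipocytes (81.2%), 33 between luminal cells and fibroblasts (81%), 32 between basal cells and adipocytes (84.2%), 30 between basal cells and fibroblasts (77%) and 29 between adipocytes and fibroblasts (78.4%).

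Genes that work with these members were counted from lists. Of 4 hemidesmosome partners, 3 were higher in adult basal cells and 0 lower, where 39.7% of all genes were higher and 34.6% lower. Col17a1, the hemidesmosome collagen, averaged 627 ± 145 CPM there and 0.635 ± 0.381 CPM in luminal cells. Of 14 other basement membrane genes, 11 were higher and 1 lower in fibroblasts (all genes 39.9% and 37.7%), and 3 were higher and 11 lower in luminal cells (38% and 35.7%). Nid1, which links laminin to collagen IV, averaged 1216 ± 292 CPM in fibroblasts and 3.27 ± 1.27 CPM in luminal cells. Col4a6, a collagen IV chain, was instead highest in basal cells, at 248 ± 29.2 CPM. Of 13 integrin ligands other than laminins, 10 were higher and 2 lower in fibroblasts, where Fn1, fibronectin, averaged 4081 ± 1155 CPM. Of 5 other laminin receptors, 4 were higher in basal cells, with Bcam at 411 ± 118 CPM, and 5 of 5 were lower in adipocytes (36.6% of all genes). Of 18 integrin adaptors, 10 were higher and 4 lower in basal cells, and 8 were higher and 9 lower in adipocytes (43.9% and 36.6% of all genes). All these lists are short, and the counts are a description. Fermt1, the epithelial kindlin, averaged 423 ± 50 CPM in basal cells, and Fermt3, the kindlin of blood cells, 10.6 ± 2.89 CPM in adipocytes against at most 3.25 CPM as the mean of another population.

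At puberty the same comparison rests on 2 libraries per population. Of 35 members without Itga6, 26 differed for luminal cells (5 higher, 21 lower), against 48.1% of all genes (23.6% higher, 24.5% lower). Basal cells differed in 21, 14 higher and 7 lower, against 35.3% (17.2% higher, 18.1% lower). Adipocytes differed in 22, 13 higher and 9 lower, against 30% (24.1% higher, 5.97% lower). Fibroblasts differed in 25, 18 higher and 7 lower, against 42.3% (23.6% higher, 18.7% lower). Without the second pubertal adipocyte library the adipocyte count was 12. Lama1 led in basal cells at 382 and 273 CPM against at most 11.7 CPM in the other pubertal libraries, a difference from the other 3 types of 6.51 ± 0.28 log2. Lama2 led in fibroblasts at 1760 and 1008 CPM. Lama5 was spread more widely in pubertal luminal cells, at 938 and 404 CPM, and was 1.5 ± 0.39 log2 above the other 3 types (edgeR adjusted p = 0.0141). Itgb6 was 46.9 and 32.6 CPM in pubertal luminal cells and 15.7 and 34.1 CPM in basal cells, so these 2 populations overlapped at puberty, while in adults they did not.

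Among members with a mean of at least 5 CPM, the ratio of the highest to the lowest stage mean over the estrous cycle had a median of 1.34 for luminal and 1.40 for basal cells, and at most 2.38 and 2.87. The median was 1.72 for adipocytes and 1.99 for fibroblasts, and the largest ratios were 32.6 and 3.37. With 2 libraries per stage, each stage was tested against the other 3 within a population.

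In luminal cells 0 of 25 tested members passed in any stage by edgeR. The share of all genes called was 0.471% in proestrus and 0% in the other 3 stages, and an unadjusted p under 0.05 was reached by 2 to 5 members per stage. DESeq2 called 3 members in at least 1 stage. In fibroblasts 0 of 33 members passed by edgeR (0% of all genes in each stage), with 4 to 11 members at an unadjusted p under 0.05, and DESeq2 called 9.

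In basal cells 1 of 29 members passed, Lama1 in estrus (1.21% of all genes). Lama1 was 177 and 101 CPM in estrus, 58.1 and 86.6 CPM in proestrus, 47.3 and 49.3 CPM in metestrus and 61.0 and 38.4 CPM in diestrus. Both estrus libraries were above the other 6, and replicate 1 stood far above replicate 2. Lama1 was 1.33 ± 0.23 log2 higher in estrus (edgeR adjusted p = 0.0227). The call was lost when all 32 adult libraries were fitted jointly (adjusted p = 0.191) and with the replicate number as a block (0.0597). It was also lost without estrus replicate 1 (0.85 log2, adjusted p = 0.893), without either metestrus library (adjusted p = 0.0557 and 0.0688) and without either diestrus library (0.0533 and 0.0609). In the other 3 stages 0 members passed by edgeR (0.00825% of all genes in proestrus, 0% in metestrus and diestrus), with 2 to 6 at an unadjusted p under 0.05, and DESeq2 called 1 member over the 4 stages.

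**Figure D3:**
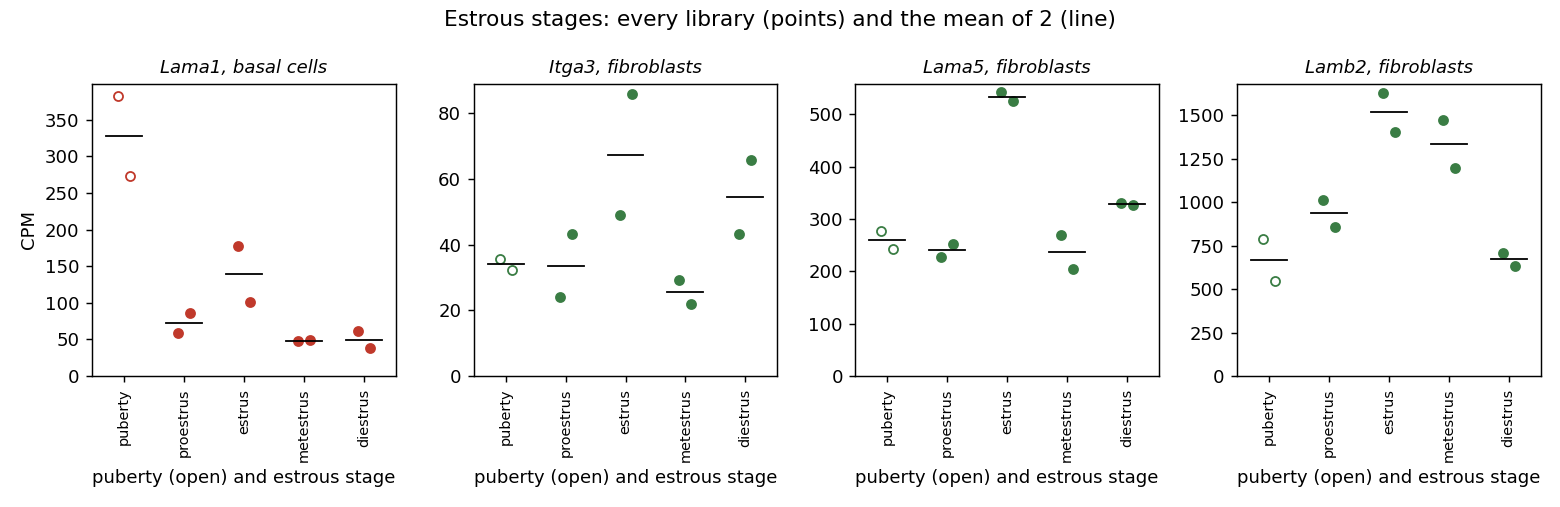
CPM of Lama1 in basal cells and of Itga3, Lama5 and Lamb2 in fibroblasts, by stage, with each library as a point, puberty open, and the mean of 2 libraries as a line. The estrus libraries are the 2 highest adult ones for Lama1 (177 and 101 CPM) and Lama5 (542 and 525 CPM).

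In adipocytes 11 of 34 members were higher in diestrus than in the other 3 stages, and 0 were lower (7.53% of all genes higher, 3.52% lower, 11% in either direction). Among them were the laminin chains Lama3 and Lamb3 and the integrin subunits Itga2, Itga3, Itga6, Itga8, Itgav, Itgb4, Itgb6 and Itgb8. Lama3 was 46.9 and 199 CPM in diestrus and 4.69 to 15.3 CPM in the other 6 adult libraries. Lamb3 was 20.8 and 86.2 CPM against 3.13 to 6.76 CPM. Itgb6 was 11.5 and 63.2 CPM against 0.335 to 3.24 CPM. In all 3 genes both diestrus libraries were above the other 6, with replicate 2 the higher. Replicate 1 was instead the higher for Itga3 (62.9 and 49.4 CPM), Itga8 (21.1 and 10.2 CPM), Itgav (186 and 161 CPM) and, narrowly, Itgb8 (25.8 and 25.2 CPM). The differences were 3.97 ± 0.55 log2 for Lama3 (edgeR adjusted p = 0.022), 3.54 ± 0.52 for Lamb3 (adjusted p = 0.0251) and 4.68 ± 0.78 for Itgb6 (adjusted p = 0.0281). The smallest adjusted p belonged to Itgav, at 186 and 161 CPM against 66.0 to 86.4 CPM (1.21 ± 0.11 log2, adjusted p = 0.0123), followed by Itga6, at 307 and 410 CPM against 95.5 to 168 CPM (1.39 ± 0.14 log2, adjusted p = 0.0144).

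The luminal and basal marker sums of these 2 libraries, given above, were higher than in the 6 other adult adipocyte libraries, as were the 11 members. Between the 2 libraries, the luminal sum was higher in replicate 1 and the basal sum in replicate 2. The epidermal sum was high in replicate 2 only, at 1812 CPM against 19.5 CPM in replicate 1. All 11 also had a mean in adult luminal or basal cells at least 4 times that of the 6 other adipocyte libraries, as had 3 members that did not pass, Itga9, Itgb3 and Lama5. The 20 remaining members, none of which passed, were below 4, with Itgb1 at 3.98 and Itga5 at 3.82 closest to it. This ratio and its cut were chosen after the values were seen. Low values in the 6 libraries raise both the ratio and the stage difference, so the split is a description and not a test. Some of the 11 were also high in adult fibroblasts. Itga8 averaged 66.1 CPM there against 5.96 CPM in the 6 adipocyte libraries, Itgav 373 against 74.2 CPM and Itga2 23.7 against 2.6 CPM. Itga6 (90 against 137 CPM) and Itgb6 (0.547 against 1.45 CPM) were lower in fibroblasts. Some genes of the partner lists were also higher in diestrus adipocytes, where 7.53% of all genes were higher. Those given here are examples and not a count over the lists. Fermt1 was higher by 4.26 ± 0.80 log2 (edgeR adjusted p = 0.0337), Sdc1, a heparan sulfate laminin receptor, by 2.36 ± 0.47 (adjusted p = 0.0374) and Cdh1, E-cadherin, by 4.65 ± 0.94 (adjusted p = 0.0382). Sdc1 was not particular to the epithelium, with adult means of 586 CPM in basal cells, 456 CPM in fibroblasts and 163 CPM in luminal cells. The part of epithelial cells in the result was not tested. The leukocyte members, Lama4 and Lama2 did not pass in diestrus, and in the other 3 stages 0 members passed by edgeR, with 3 to 6 at an unadjusted p under 0.05. DESeq2 called 14 members over the 4 stages. With the replicate number as a block 0 members passed in diestrus, and 2 genes in all (edgeR adjusted p = 0.0557 to 0.106 for the 11). The count of 11 also became 0 without estrus replicate 1, estrus replicate 2, metestrus replicate 1, metestrus replicate 2 or proestrus replicate 2, 17 without diestrus replicate 1, 9 without diestrus replicate 2 and 8 without proestrus replicate 1.

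**Figure D4:**
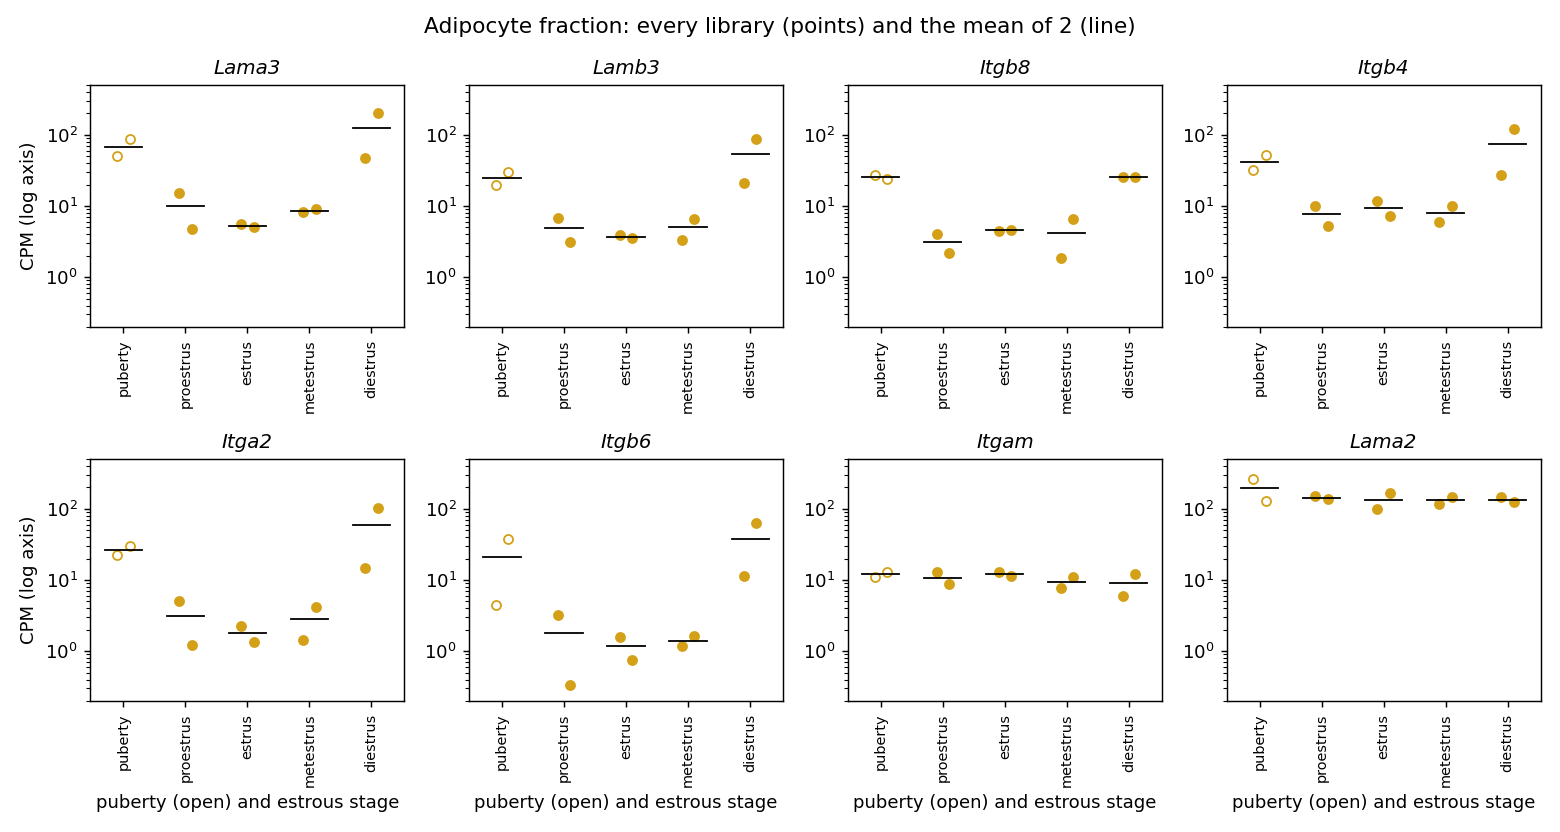
CPM of 8 members in every adipocyte library on a log axis, with puberty open, the estrous stages filled and the mean of 2 libraries as a line. Lama3, Lamb3, Itgb8, Itgb4, Itga2 and Itgb6 are high in both diestrus libraries and, with the exception of 1 pubertal Itgb6 library at 4.44 CPM near the other stages, at puberty. Itgam and Lama2 are not, except for Lama2 in 1 pubertal library, at 258 CPM against 99.9 to 169 CPM in adults.

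No pair of stages called a member in any population by edgeR. Per pair, at an unadjusted p under 0.05, there were 3 to 5 luminal, 2 to 9 basal, 2 to 14 adipocyte and 3 to 12 fibroblast members. DESeq2 called 4, 2, 15 and 11 members in at least 1 pair. The share of all genes called by edgeR was 0.0569%, 0.195% and 0.252% in the luminal pairs of proestrus with estrus, metestrus and diestrus, 0.0247% in basal metestrus against proestrus, 0.0801% in adipocyte diestrus against estrus and 0% in the other pairs.

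Whether a stage effect differed between populations was tested as an interaction. In diestrus, 13 members had a larger effect in adipocytes than in the other 3 types (10.2% of all genes higher, 3.32% lower, 13.6% in either direction), the 11 above with Lama1 and Lama5. The interaction was 3.59 ± 0.46 log2 for Lama3 (edgeR adjusted p = 3.32e-05) and 2.58 ± 0.35 for Itgb8 (adjusted p = 5.95e-05). Lama1 and Lama5 rested on diestrus replicate 1: without it the interaction was 0.08 log2 for Lama1 (adjusted p = 1.0) and 0.12 for Lama5 (adjusted p = 0.902). The Lama5 call was also lost without adipocyte estrus 1 or proestrus 1, any basal library except estrus 1 and metestrus 1, or any luminal library except metestrus 2 (adjusted p up to 0.0705). Without diestrus replicate 2, Itga2 (2.13 log2, adjusted p = 0.0815) and Itga6 (0.90 log2, adjusted p = 0.0882) did not pass. In estrus, Itga3 had a lower effect in adipocytes (-1.80 ± 0.31 log2, adjusted p = 0.021; 0.630% of all genes), and its estrus libraries there held 7.36 and 14.1 CPM. Without adipocyte estrus replicate 1 it did not pass (-1.39 log2, adjusted p = 0.428), nor without adipocyte metestrus 1, basal estrus 2 or proestrus 1, or luminal estrus 1, estrus 2, proestrus 1 or proestrus 2 (adjusted p up to 0.068). Against this count of 1 member, DESeq2 gave 7 and the fit with no low-count filter 8. Without adipocyte diestrus replicate 1 the count was 7, and without diestrus replicate 2 it was 2.

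In fibroblasts, 3 members had a larger estrus effect than in the other 3 types (3.15% of all genes). Lama5 was 542 and 525 CPM in estrus fibroblasts and 204 to 331 CPM in the other 6, without overlap, with an interaction of 1.17 ± 0.30 log2 (edgeR adjusted p = 0.0399). Lamb2 was 1627 and 1405 CPM in estrus, 1470 and 1198 CPM in metestrus and 635 to 1014 CPM in the other 4 libraries, so estrus and metestrus overlapped (0.69 ± 0.13 log2, adjusted p = 0.0242). Itga3 was 49.0 and 85.8 CPM in estrus and 21.9 to 65.6 CPM in the others, also overlapping (1.31 ± 0.28 log2, edgeR adjusted p = 0.0242). The lower estrus effect of Itga3 in adipocytes, given above, is part of the reference for this value. In diestrus Lamb2 had a lower effect in fibroblasts, at 706 and 635 CPM (-0.73 ± 0.13 log2, adjusted p = 0.0244; 0.159% of all genes), and with the pool of mice as a block its adjusted p was 0.0616. Without the low-count filter neither interaction of Lamb2 passed, with adjusted p = 0.0866 in diestrus and 0.0504 in estrus. In estrus fibroblast libraries the summed endothelial markers were 2514 and 2604 CPM and the summed Schwann cell markers 1132 and 1073 CPM, in both cases the highest of the adult fibroblast libraries, and their part in these results was not tested. The count of 3 members in estrus became 0 without fibroblast estrus replicate 1 or metestrus replicate 2, and 5 without adipocyte diestrus replicate 2. Itga3 also did not pass without fibroblast estrus replicate 2 (0.85 log2, adjusted p = 0.108). The Lama5 call held without adipocyte diestrus 1, diestrus 2, estrus 2 or proestrus 1, basal estrus 2 or proestrus 1, fibroblast diestrus 1, estrus 2, metestrus 1 or proestrus 2, or luminal metestrus 2, and was lost without any other single adult library (adjusted p up to 0.401). The diestrus call of Lamb2 was lost without any luminal library, any basal library except metestrus 1, fibroblast diestrus 2, metestrus 1 or proestrus 1, or adipocyte diestrus 2 (adjusted p up to 0.193). No stage effect of luminal or basal cells differed for any member by edgeR, with 1 to 13 members at an unadjusted p under 0.05 per stage, and DESeq2 called 3 and 5 members. The shares of all genes called were 0.139% in luminal proestrus, 0.0995% in luminal diestrus, 0.133% in basal diestrus, 0.0133% in basal metestrus, 0.00663% in basal estrus and 0% in the other 3. Metestrus and proestrus called 0 members for adipocytes (0% of all genes, 3 and 4 members at an unadjusted p under 0.05) and for fibroblasts (0.0199% and 0.00663%, 6 and 4 members).

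Puberty was compared with the mean of the 4 adult stages within each population, with 36 members tested. The 2 age groups were separate sequencing runs.

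Luminal cells had 4 lower members and 0 higher at puberty (13.4% of all genes, 9.03% higher and 4.36% lower). Itga7 was 1.88 and 2.22 CPM at puberty and 5.39 to 12.1 CPM in adults (-2.18 ± 0.37 log2, edgeR adjusted p = 0.000226). Lamb1 was 26.9 and 18.6 CPM against 47.2 to 95.3 CPM (-1.68 ± 0.35 log2, adjusted p = 0.00199), and Itgav 354 and 268 CPM against 446 to 697 CPM (-0.83 ± 0.18 log2, adjusted p = 0.00296). The fourth was Lama3. In all 4 genes the pubertal libraries were below every adult library. The summed fibroblast markers were also lower there, at 35.3 and 24.1 CPM against 107 to 533 CPM in adult luminal libraries, and their part in the result was not tested. Without pubertal replicate 2 the count was 1, and without replicate 1 it was 8. Itgav (-0.65 log2, adjusted p = 0.166) and Lamb1 (-1.44 log2, adjusted p = 0.108) did not pass without replicate 2.

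Basal cells had 10 higher and 6 lower members (34.3% of all genes, 18.5% higher and 15.8% lower). Itga8, the alpha subunit of the nephronectin receptor, was 165 and 160 CPM at puberty and 39.8 to 65.5 CPM in adults (1.68 ± 0.20 log2, edgeR adjusted p = 7.17e-07). Lama1 was 382 and 273 CPM against 38.4 to 177 CPM (2.22 ± 0.37 log2, adjusted p = 7.19e-05). Itgb5, a vitronectin receptor subunit, went the other way, at 84.6 and 90.5 CPM against 168 to 220 CPM (-1.15 ± 0.20 log2, adjusted p = 7.96e-05). In these 3 genes puberty and adults did not overlap. Lamc1 and Lamb1, the chains that form laminin-111 with Lama1, were also higher: Lamc1 at 1502 and 1308 CPM against 366 to 757 CPM, and Lamb1 at 669 and 603 CPM against 206 to 406 CPM. Of 14 basement membrane partners, 7 were higher and 1 lower at puberty in basal cells, Nid1 by 1.97 ± 0.31 log2 (adjusted p = 3.65e-05), and among the integrin ligands Fn1 was higher by 3.71 ± 0.39 (adjusted p = 1.35e-07). The higher members also included Itgam and Itga4, which stayed at or below 0.258 CPM in basal cells. The summed epidermal markers were 111 and 192 CPM in pubertal basal libraries against 3.8 to 7.26 CPM in adult ones. The summed pericyte markers were 64.3 and 54.8 CPM against 148 to 349 CPM, and the luminal markers 1316 and 1742 CPM against 2432 to 3125 CPM. Their part in the result was not tested. Without pubertal replicate 1 the count of 16 was 8, and without replicate 2 it was 7.

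**Figure D5:**
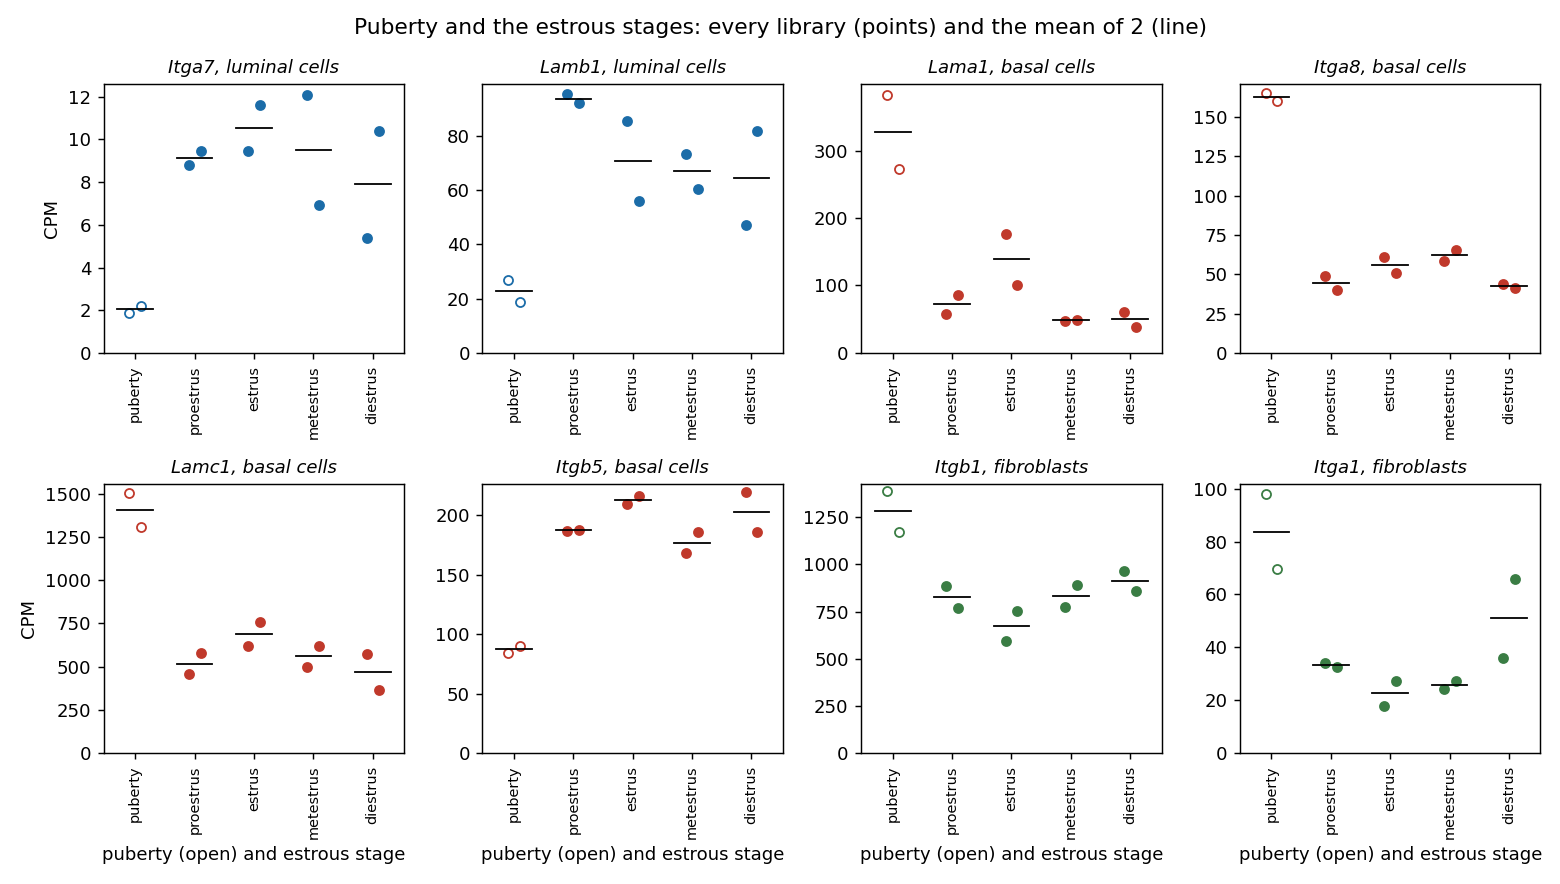
CPM of 8 members named for the comparison of puberty (open points) with the 4 estrous stages (filled points), by library, with the mean of 2 libraries as a line and axes from 0. Pubertal basal cells lie above all adult basal libraries for Lama1, Itga8 and Lamc1 and below them for Itgb5.

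Adipocytes had 16 higher members and 0 lower at puberty (23.5% of all genes, 14.7% higher and 8.76% lower). Lama1 was 11.7 and 9.8 CPM at puberty and 0.0735 to 6.27 CPM in adults (3.88 ± 0.48 log2, edgeR adjusted p = 6.41e-06). Itgb8 was 27.3 and 23.7 CPM against 1.85 to 25.8 CPM (2.04 ± 0.31 log2, adjusted p = 8.88e-05), and Lama3 50.3 and 86.0 CPM against 4.69 to 199 CPM (2.15 ± 0.35 log2, adjusted p = 0.000158). For Itgb8 and Lama3 the adult range reached the pubertal values only through the diestrus libraries. The summed luminal markers of the pubertal adipocyte libraries were 1556 and 1003 CPM and the basal markers 632 and 2604 CPM, above the 6 adult libraries outside diestrus. The summed fibroblast markers were 9170 and 18178 CPM against 3015 to 6032 CPM in all adult adipocyte libraries, and the adipocyte markers 12139 and 5262 CPM against 13956 to 23462 CPM outside diestrus. The epidermal markers were 15.9 and 956 CPM. Their part in the result was not tested. Without both diestrus adipocyte libraries the count stayed 16, and without pubertal replicate 1 it was 10.

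Fibroblasts had 7 higher and 6 lower members (23.9% of all genes, 12.1% higher and 11.8% lower). Itgb1 was 1389 and 1174 CPM at puberty against 596 to 966 CPM (0.67 ± 0.13 log2, edgeR adjusted p = 0.000846). Itga1, a collagen receptor subunit, was 97.9 and 69.5 CPM against 17.9 to 65.9 CPM (1.41 ± 0.31 log2, adjusted p = 0.00184), and Itga4, a fibronectin and VCAM1 receptor subunit, 5.88 and 7.94 CPM against 1.29 to 4.79 CPM (1.71 ± 0.41 log2, adjusted p = 0.00386). In all 3 genes the pubertal libraries were above every adult library. Itga5 was lower, at 463 and 449 CPM against 518 to 1087 CPM. The summed fibroblast markers were 110305 and 79464 CPM at puberty and 18054 to 47143 CPM in adults, and their part was not tested. Without pubertal replicate 1 the count of 13 was 5, and without replicate 2 it was 4. Itga1 did not pass without replicate 1 (1.14 log2, adjusted p = 0.0708), nor Itga4 without replicate 2 (1.48 log2, adjusted p = 0.0934).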

How the data were processed

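Stranded polyA RNA-seq libraries were sequenced as 65 base single-end reads. The authors aligned them to GRCm38 with TopHat2 2.1 and Bowtie 1.1.0 and deposited unnormalised HTSeq read counts per gene, with pubertal and adult libraries in separate tables. Groups came from the sample labels. Genes above 1 CPM in at least 2 libraries were tested by edgeR 4.0.16 (R 4.3.3) with TMM factors and the quasi-likelihood F-test, and p-values were adjusted over all genes tested by Benjamini-Hochberg at 0.05. The fits were checked on simulated counts.

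Cell types were compared over 32 adult and over 8 pubertal libraries, stages within each cell type, and age in a fit of all 40 libraries. Libraries were pools of mice, and p-values measure the spread between pools. Adult cell types of a pool came from the same mice: deviations from group means correlated at -0.021 to 0.25 over 24 pairs. RPKM used the union exon length.

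Alternatives were DESeq2 1.42.0, RLE size factors, a newer quasi-likelihood method, no low-count filter, a replicate block, a joint fit and leaving out libraries. Leaving out both diestrus adipocyte libraries was added after the data had been seen. Members and lists were chosen with earlier results of these data known. Named genes were, per adult cell type, the 3 members with the largest positive log2 fold change among those called at a mean of 5 CPM or more and the member with the highest RPKM, members called in a stage or interaction test, and the 3 per cell type with the smallest adjusted p for puberty against adult. Other members are named to complete a group, after their values were seen. Promoter matching covered 24 members. The counts and fits include 1 member whose own values are not reported here.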

Additional observations from a re-analysis of the deposited data

Results flagged for a closer look

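Over the members reported here, among 101 sets of 8 adult libraries of 1 member in 1 cell type, 13 held a library whose gap to its nearest neighbour exceeded Dixon's critical value of 0.526 of the range. Chance alone flags such libraries in a small share of sets.

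In adipocytes the library was diestrus replicate 2 for Itga2 (103 CPM), Itgal (9.72 CPM), Itgb4 (121 CPM), Itgb6 (63.2 CPM), Lama3 (199 CPM) and Lamb3 (86.2 CPM), and diestrus replicate 1 for Itga8 (21.1 CPM) and Lama5 (175 CPM). All 8 were the highest adipocyte library. The luminal and basal marker sums of both libraries were above those of the other adult adipocyte libraries. The epidermal marker sum was 1812 CPM in replicate 2, 19.5 CPM in replicate 1 and 19.4 to 243 CPM in the other 6. The part of these markers in the flagged values was not tested.

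In luminal cells metestrus replicate 2 was low for Itga3 (134 CPM, the others 150 to 164 CPM) and Lamb2 (94.9 CPM, the others 111 to 123 CPM), and diestrus replicate 1 was high for Lama4 (35.1 CPM, the others 10.3 to 21.8 CPM). In basal cells estrus replicate 1 was high for Lama1 (177 CPM, the others 38.4 to 101 CPM). In fibroblasts diestrus replicate 2 was high for Itga1 (65.9 CPM, the others 17.9 to 35.9 CPM).

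A stage effect differed between cell types by the edgeR interaction test for 17 combinations of cell type, stage and a member reported here. The diestrus effect was higher in adipocytes than in the other 3 types by 4.17 log2 for Itga2 (adjusted p = 0.000373), 1.71 for Itga3 (0.000321), 1.16 for Itga6 (0.00285), 1.48 for Itga8 (0.00105), 1.05 for Itgav (0.00108), 3.31 for Itgb4 (3.32e-05) and 3.99 for Itgb6 (0.000247). It was higher by 2.58 for Itgb8 (5.95e-05), 2.95 for Lama1 (0.0104), 3.59 for Lama3 (3.32e-05), 1.02 for Lama5 (0.0295) and 3.31 for Lamb3 (0.000263). The estrus effect in adipocytes was -1.80 for Itga3 (0.021). In fibroblasts the estrus effect was higher by 1.31 for Itga3 (0.0242), 1.17 for Lama5 (0.0399) and 0.69 for Lamb2 (0.0242), and the diestrus effect was -0.73 for Lamb2 (0.0244).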

How the results depend on the processing

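No named value changed direction. The adult counts between cell types stayed within 1.5 times under every alternative, and ran from 24 to 34 when single libraries were left out. The stage results depended most on the processing, and the cause was not tested.

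Members called in at least 1 stage numbered 3 by DESeq2 and 8 without the low-count filter in luminal cells. The counts were 0 in the joint fit, 3 without the filter and 0 with the replicate block in basal cells. They numbered 0 with the replicate block in adipocytes, and 9 by DESeq2, 7 in the joint fit and 18 without the filter in fibroblasts. In pairs of stages the counts were 4 by DESeq2 and 8 without the filter for luminal and 2 and 4 for basal libraries. Adipocytes had 15 by DESeq2, 2 with RLE factors, 14 in the joint fit, 2 with the newer quasi-likelihood method and 5 without the filter, and fibroblasts had 11 by DESeq2, 6 in the joint fit and 18 without the filter. Stage effects differing between cell types numbered, by DESeq2 and without the filter, 3 and 5 for luminal, 5 and 9 for basal and 5 and 5 for fibroblast libraries.

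Leaving out 1 library at a time gave, for members called in at least 1 stage, 0 to 0 in luminal cells, 0 to 1 in basal cells, 0 to 17 in adipocytes and 0 to 2 in fibroblasts. For pairs of stages it gave 0 to 0, 0 to 1, 0 to 16 and 0 to 5 in the same order, for differing stage effects 0 to 2, 0 to 5, 11 to 13 and 1 to 5, for puberty against adult 1 to 8, 7 to 17, 10 to 16 and 4 to 15, and for pubertal cell types 23 to 26, 15 to 22, 12 to 23 and 22 to 26.

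Replicate numbers name early and late pools of a stage, not shared animals across stages, and deviations correlated at -0.728 to 0.449 over 24 pairs. With the replicate block, 13 of 54 named values no longer passed, Lama1 in basal estrus among them (adjusted p = 0.0597), the 11 adipocyte diestrus members and the fibroblast diestrus interaction of Lamb2. The block changed no count between cell types or ages by more than 1.5 times. With 2 libraries per stage, small stage differences could not be resolved.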
